A study of Mus musculus with 20 samples.

Results

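The ligands of the epidermal growth factor (EGF) family and their ERBB receptors were followed through white and brown fat of mice that lost α4 in adipocytes. The 10 genes are the 7 ligands Nrg1, Nrg4, Areg, Ereg, Hbegf, Btc and Tgfa and the 3 receptors Egfr, Erbb2 and Erbb3. They were chosen by name, with earlier results of these data known, and all 10 had a row among the 25219 genes of the expression table. The measurements came from 20 bulk RNA-seq libraries of inguinal white adipose tissue (iWAT) and interscapular brown adipose tissue (BAT), with 5 libraries for each combination of tissue and genotype. All mice were males of a mixed C57Bl/6 background that carried floxed alleles of Igbp1, the gene encoding α4, a regulatory protein of the PP2A family of phosphatases. Ai-α4KO mice also carried Adiponectin-CreERT2, a Cre driven by the promoter of an adipocyte gene and switched on by tamoxifen. Control mice lacked the Cre and have the genotype label WT, and both genotypes received tamoxifen from 2 months of age. The tissues represent the state 1 week after recombination, and cells other than adipocytes keep their floxed alleles intact. The labels do not say whether each library came from its own animal, so the p-values measure the spread between libraries, and they do not say whether iWAT and BAT came from the same mice.

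EGF-family ligands are mostly made as membrane-bound precursors that proteases of the ADAM group release by cutting. The ligands then bring ERBB receptors together in pairs, and the paired kinases activate the RAS-ERK and PI3K-AKT cascades. EGFR binds EGF, TGFα, amphiregulin, epiregulin, betacellulin and HB-EGF, whereas NRG1 binds ERBB3 and ERBB4 and NRG4 binds ERBB4. ERBB2 has no known ligand of its own and ERBB3 has little kinase activity, so both act mainly as partners. In adipose tissue, Nrg4 is known as a factor secreted by adipocytes, with high levels in brown fat.

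Coordinates are those of the mm10 (GRCm38) genome. Ereg (chr5:91074617-91093649, plus strand), Areg (chr5:91139615-91148432, plus strand) and Btc (chr5:91357261-91402994, minus strand) are neighbours on chromosome 5. Nrg4 lies at chr9:55220222-55283625 (minus strand), Egfr at chr11:16752203-16913907 (plus strand), Erbb2 at chr11:98412484-98437716 (plus strand), Erbb3 at chr10:128569368-128589501 (minus strand) and Tgfa at chr6:86195251-86275449 (plus strand). The Nrg1 row spans 100.2 kb (chr8:31818028-31918203, minus strand), whereas the RefSeq gene spans 1084 kb, so upstream exons of longer isoforms fall outside the row.

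RefSeq promoter sequences of the same assembly (GRCm38.p6) were at hand for 6 of the 10 members. The 250 bases before the start used in the RefSeq promoter set are shown for Nrg4 and Btc, which were lower in Ai-α4KO BAT, and for Egfr and Areg, which had more counts there. For Nrg4, Btc and Egfr that start is also the start of the row given above, whereas for Areg it is chr5:91139599, upstream of the row. Capitals mark exact matches, on either strand, to any of 6 motifs, whose letters are given after the sequences and of which no matches overlapped in these windows.
Nrg4, chr9:55283626-55283875, minus strand: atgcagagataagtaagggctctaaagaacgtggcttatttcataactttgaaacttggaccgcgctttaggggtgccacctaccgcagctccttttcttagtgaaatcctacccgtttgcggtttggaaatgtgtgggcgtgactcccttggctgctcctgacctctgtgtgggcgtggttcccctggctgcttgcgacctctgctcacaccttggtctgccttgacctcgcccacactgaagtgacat
Btc, chr5:91402995-91403244, minus strand: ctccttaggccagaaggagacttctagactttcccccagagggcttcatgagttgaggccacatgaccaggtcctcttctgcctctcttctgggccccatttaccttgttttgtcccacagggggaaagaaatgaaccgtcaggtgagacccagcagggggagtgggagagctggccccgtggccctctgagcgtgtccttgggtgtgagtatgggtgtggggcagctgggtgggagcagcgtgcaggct
Egfr, chr11:16751953-16752202, plus strand: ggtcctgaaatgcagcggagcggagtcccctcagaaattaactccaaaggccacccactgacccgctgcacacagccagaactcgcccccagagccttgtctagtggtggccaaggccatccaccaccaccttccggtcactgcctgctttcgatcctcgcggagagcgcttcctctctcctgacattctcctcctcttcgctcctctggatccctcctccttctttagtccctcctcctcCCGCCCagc
Areg, chr5:91139349-91139598, plus strand: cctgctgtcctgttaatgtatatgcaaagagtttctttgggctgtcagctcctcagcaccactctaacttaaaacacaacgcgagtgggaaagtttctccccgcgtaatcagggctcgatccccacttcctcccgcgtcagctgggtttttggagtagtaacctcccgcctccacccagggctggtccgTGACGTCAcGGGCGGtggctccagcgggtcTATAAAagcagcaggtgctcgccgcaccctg
The Areg window held a cAMP response element (TGACGTCA) 61 bases before the RefSeq start, which 1.55% of all 32851 promoters searched over the same length held. It also held the letters GGGCGG of a GC box at 52 bases, found in 32.7% of promoters, and the letters TATAAA of a TATA box at 31 bases, found in 12.4%. The Egfr window held a GC box 9 bases before the RefSeq start, on the minus strand of the window. The Nrg4 and Btc windows held none of the 6 motifs. The other motifs were in none of these 4 windows. They were AP-1, searched as TGANTCA and held by 6.75% of all promoters, the CCAAT box, held by 33.8%, and the E-box, searched as CACGTG and held by 6.02%. A match describes the letters in the window and does not show that a factor binds there.

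Library depth ranged from 24023309 to 50384427 counts. The targeted gene Igbp1 fell from 67.2 ± 7.02 to 10.8 ± 0.395 CPM (counts scaled to library size; mean ± SD, n = 5) in iWAT and from 93.9 ± 7.29 to 17.0 ± 4.83 CPM in BAT (log2 fold changes -2.65 and -2.5, edgeR adjusted p = 4.99e-08 and 2.20e-07). The summed CPM of 7 BAT markers was 7713 to 11819 in Control BAT and 205 to 968 in Control iWAT, as the tissue labels say. The summed CPM of 10 adipocyte markers was lower in Ai-α4KO fat (31787 to 44245 against 14778 to 22204 in iWAT, 28539 to 31826 against 15692 to 20022 in BAT), and 9 of 10 fell in iWAT and 8 of 10 in BAT. All 7 macrophage markers measured rose in both tissues (1038 to 1734 against 6708 to 9062 CPM in iWAT, 211 to 470 against 3948 to 6481 CPM in BAT). Some libraries stood apart. B cell markers summed to 431 and 171 CPM in Control iWAT 1 and 4, against 5.72 to 7.44 in the other Control iWAT libraries. Epithelial markers summed to 60.4 and 22.9 CPM in those same 2 libraries and to 50.3 and 105 CPM in Ai-α4KO iWAT 1 and 2, against 1.09 to 5.85 in the other iWAT libraries. Skeletal muscle markers summed to 6867 CPM in Control iWAT 4 and 5202 CPM in Ai-α4KO iWAT 1, against 5.42 to 178 in the other iWAT libraries. All Ai-α4KO BAT libraries had more RNA of skeletal muscle markers (12673 to 41369 CPM) than any Control BAT library (882 to 9153 CPM), and 6 of the 8 markers rose.

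Levels can be set against each other between genes only per length of transcript, as FPKM, in which fragments are scaled to transcript length and library depth. Nrg4 was the most abundant ligand in Control fat, at 33.8 ± 11.3 FPKM in iWAT and 38.6 ± 5.64 FPKM in BAT (n = 5), and no library of another ligand reached the lowest Nrg4 library of its group. Betacellulin (Btc) followed at 3.34 ± 1.75 FPKM in iWAT and 9.74 ± 5.83 FPKM in BAT. The Control levels of Hbegf and Tgfa lay between 0.218 and 0.457 FPKM in group means, and those 2 genes overlapped in iWAT and not in BAT. Nrg1, Areg and Ereg were at or close to 0 in Control BAT. Among the receptors of Control iWAT, Egfr led at 7.90 ± 2.04 FPKM, followed by Erbb2 at 0.988 ± 0.299 and Erbb3 at 0.369 ± 0.166 FPKM. In Control BAT, Egfr was at 2.02 ± 0.821 FPKM, and Erbb2 and Erbb3 overlapped at 0.725 ± 0.205 and 0.597 ± 0.291 FPKM.

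In Ai-α4KO iWAT the order changed. Egfr, at 14.7 ± 2.60 FPKM, exceeded Nrg4, at 6.66 ± 2.59 FPKM, in group mean, and the ranges of these 2 genes did not overlap. Btc, Areg, Nrg1 and Hbegf followed between 0.994 and 1.87 FPKM and overlapped one another. In Ai-α4KO BAT, Nrg4 at 9.52 ± 2.35 FPKM and Egfr at 6.89 ± 2.18 FPKM overlapped. In iWAT, the ligands summed to 38.2 ± 9.89 FPKM in Controls and 12.5 ± 2.87 FPKM in Ai-α4KO mice, and in BAT to 49.1 ± 5.18 and 14.1 ± 2.77 FPKM. The 3 receptors summed to 9.26 ± 2.09 and 15.9 ± 2.5 FPKM in iWAT and to 3.34 ± 1.08 and 7.88 ± 2.09 FPKM in BAT, in the same order of genotypes. Neither sum overlapped between the genotypes of a tissue. In iWAT, Nrg4 made up 87.0 ± 8.06% of the ligand sum of Controls and 52.8 ± 12.1% of that of Ai-α4KO mice. In BAT the share was 79.0 ± 10.5% in Controls and 67.0 ± 3.74% in Ai-α4KO mice. FPKM values were used as deposited, without a further scaling between libraries, and these sums carry no test.

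**Figure D1:**
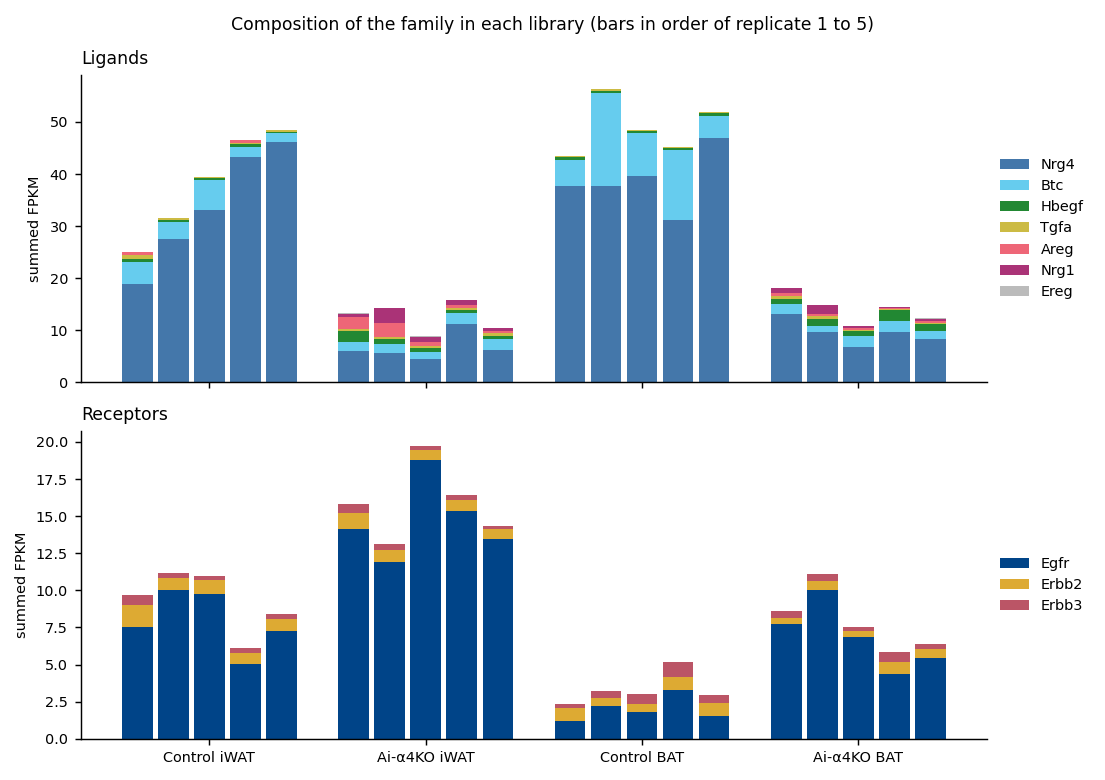
Stacked bars show, for each of the 20 libraries, the FPKM of the 7 ligands (top) and the 3 receptors (bottom), in replicate order within each group. Ligand sums lie between 25.1 and 56.3 FPKM in the Control libraries and between 8.86 and 18.1 FPKM in the Ai-α4KO libraries, with Nrg4 (dark blue) the main part that shrinks, and Egfr takes most of every receptor bar.

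The quasi-likelihood test of edgeR compared the genotypes in iWAT and, separately, in BAT across all genes, and a gene was said to rise or fall at a Benjamini-Hochberg adjusted p below 0.01 with at least a 2-fold change. In iWAT, 9 members had enough counts to be tested. Nrg1 rose and Nrg4 fell. Among all 14604 genes tested in iWAT, 11.3% rose and 10.7% fell. In BAT, 8 members were tested. Nrg1, Hbegf and Egfr rose, and Nrg4 and Btc fell. Among all 14344 genes tested in BAT, 18.2% rose and 13.3% fell. With scaling by library size alone these shares were 22.7% and 8.82% in BAT, and 13.0% and 8.68% in iWAT. The 5 Ai-α4KO libraries did not overlap the 5 Controls for 2 of the 9 tested members above and 1 below in iWAT, where 20.7% and 18.4% of all genes separated in these directions. In BAT the corresponding counts were 3 and 2 of 8, against 24.7% and 23.0% of all genes. A member whose groups did not overlap reached an exact permutation p of 0.0079 (two-sided), the smallest that the 252 arrangements of 5 against 5 libraries allow.

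**Figure D2:**
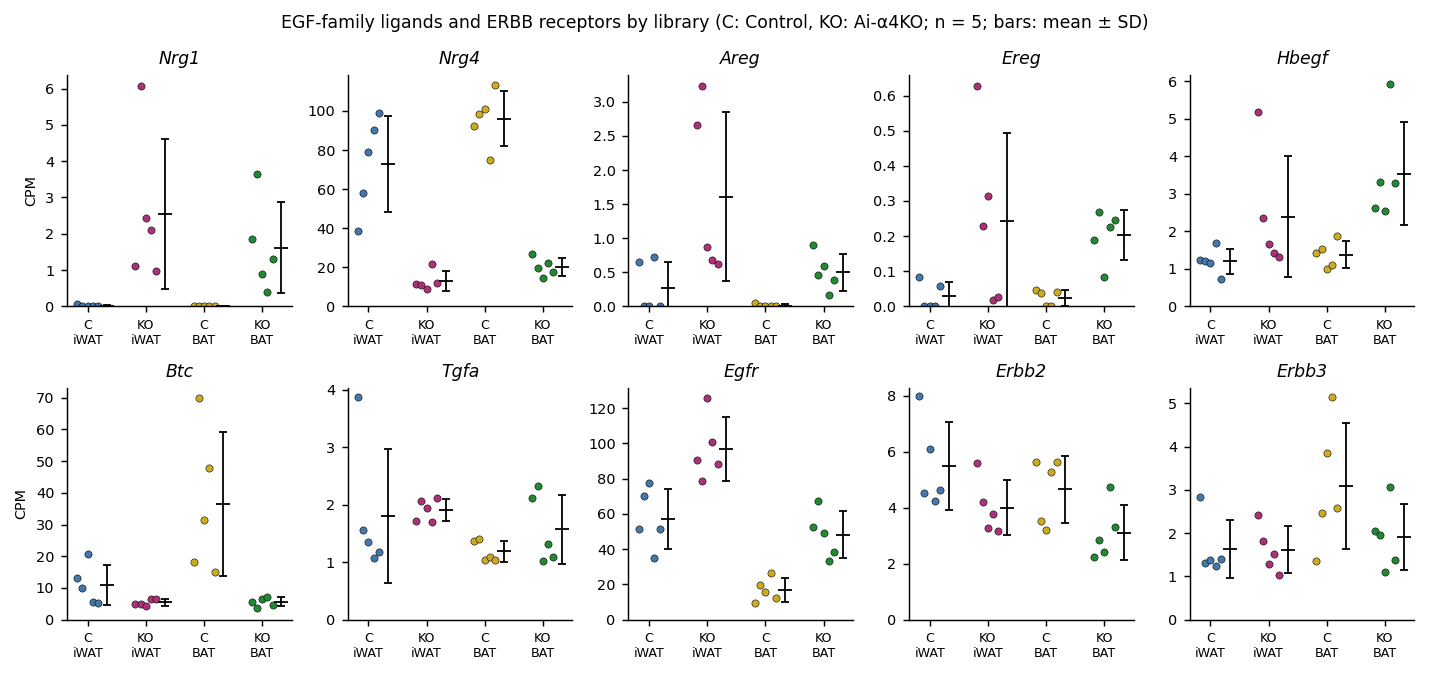
Each panel plots one member in CPM (linear axis from 0) for the 5 libraries of each group, with the group mean ± SD beside the points. Nrg1 is near 0 in every Control library and between 0.386 and 6.08 CPM in the Ai-α4KO libraries, while Nrg4 drops in both tissues without overlap.

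Nrg4, the neuregulin secreted by adipocytes, fell in both tissues. In Control iWAT the 5 libraries had 38.6, 57.9, 79.2, 90.1 and 98.8 CPM, and in Ai-α4KO iWAT they had 11.6, 11.1, 8.87, 21.9 and 12.1 CPM. The lowest Control library was above the highest Ai-α4KO library, and the Control libraries differed among themselves by more than 2-fold. The log2 fold change was -2.48 (SE 0.300, edgeR adjusted p = 4.80e-05). In BAT, Control libraries had 92.5, 98.2, 101, 74.9 and 113 CPM and Ai-α4KO libraries had 26.7, 19.4, 14.6, 22.1 and 17.7 CPM. Here too the groups were apart, with a log2 fold change of -2.29 (SE 0.164, edgeR adjusted p = 3.27e-07). The medians over the 10 adipocyte markers were -1.74 in iWAT and -1.76 in BAT on the log2 scale. In bulk tissue, fewer cells of a type and less RNA per cell cannot be told apart, and the part of the adipocyte markers in the Nrg4 result was not tested.

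Nrg1 (Entrez 211323), the neuregulin best known from nerve and heart, was almost without reads in Control fat. Control iWAT libraries held 3, 0, 0, 0 and 0 counts, and Ai-α4KO iWAT libraries held 39, 267, 93, 117 and 38. Every Ai-α4KO library was above every Control library, with Ai-α4KO iWAT 2 the highest. The pooled counts rose from 3 to 554, a depth-adjusted ratio of 153 (exact 95% counting interval 52.0 to 742, for counting error only), and edgeR gave an adjusted p of 6.72e-05. All 3 Control counts came from Control iWAT 1. Without that library the remaining Controls were at 0 and Nrg1 still rose, with a fitted log2 fold change of 9.56 instead of 7.02. In BAT, Nrg1 was at 0 counts in all 5 Controls and at 68, 136, 21, 12 and 37 counts in Ai-α4KO libraries. Against a floor of 3 counts per library, this was at least 13.1-fold higher (edgeR adjusted p = 3.99e-04). The 8 markers of Schwann cells, a cell type governed by neuregulin, summed to 82.7 to 199 CPM in Control and 71.7 to 132 CPM in Ai-α4KO iWAT, and to 69.6 to 98.4 and 53.0 to 133 CPM in BAT, and none of them was at 0. Of the 8, 1 rose and 1 fell in each tissue. These shares are to be read against the 11.3% and 10.7% of all genes in iWAT and the 18.2% and 13.3% in BAT. The marker that rose was Mag, encoding a myelin glycoprotein, and the one that fell was Cdh19, a cadherin, both named after their values were seen. In iWAT, the median of Mag went from 1.88 to 5.37 CPM and that of Cdh19 from 8.86 to 2.41 CPM. In BAT the median of Mag went from 0.273 to 2.64 CPM and that of Cdh19 from 4.62 to 1.99 CPM. The list's median was -0.69 in iWAT and 0.12 in BAT on the log2 scale. The part of Schwann cells in the Nrg1 values was not tested.

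Btc, a ligand of EGFR and ERBB4, fell in BAT. Control BAT libraries had 18.3, 69.8, 31.4, 47.9 and 14.9 CPM, and Ai-α4KO BAT libraries had 5.69, 3.66, 6.65, 7.21 and 4.74 CPM. The Controls spread over more than 4-fold, yet all were above all Ai-α4KO libraries (log2 fold change -2.74, SE 0.394, edgeR adjusted p = 8.05e-05). With the mean log2 CPM of the skeletal muscle markers as a covariate, the log2 fold change was -3.51 (edgeR adjusted p = 2.21e-04). This covariate was 6.54 to 9.83 in Control BAT and 10.3 to 12.1 in Ai-α4KO BAT. As it did not overlap between genotypes, muscle RNA and genotype cannot be told apart in such a fit. In iWAT, Control libraries had 13.2, 9.85, 20.7, 5.61 and 5.16 CPM and Ai-α4KO libraries had 5.02, 5.08, 4.25, 6.59 and 6.53 CPM. These groups overlapped, and the log2 difference of -0.99 (SE 0.354, edgeR adjusted p = 0.0337) did not pass the threshold. The 7 BAT markers, such as Ucp1, summed to 7713 to 11819 CPM in Control and 1183 to 2681 CPM in Ai-α4KO BAT, where 6 fell. In Control iWAT libraries 1 to 5 they summed to 549, 743, 968, 247 and 205 CPM, and in Ai-α4KO iWAT to 18.7 to 38.5 CPM, where 5 of the 6 tested fell. The Control iWAT libraries with the most Btc and the least Btc were thus also those with the most and the least BAT marker RNA. Control BAT went the other way. Its library 1 had the most BAT marker RNA (11819 CPM) and 18.3 CPM of Btc, and its library 4 the least (7713 CPM) and 47.9 CPM of Btc. The part of BAT marker RNA in the Btc values was not tested.

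Hbegf, the ligand heparin-binding EGF-like growth factor, rose in BAT. Control BAT libraries had 1.41, 1.53, 0.997, 1.09 and 1.87 CPM and Ai-α4KO BAT libraries had 2.63, 3.32, 2.54, 5.92 and 3.30 CPM. The groups did not overlap, and Ai-α4KO BAT 4, the library with the most muscle marker RNA, was the highest (log2 fold change 1.32, SE 0.288, edgeR adjusted p = 0.00173). With the same muscle covariate, the log2 difference was 0.90 and the call was lost (edgeR adjusted p = 0.115). Muscle RNA and genotype cannot be told apart in that fit. In iWAT, the Control range of 0.733 to 1.68 CPM overlapped the Ai-α4KO range of 1.32 to 5.19 CPM, and the log2 difference of 0.99 (SE 0.407) had an edgeR adjusted p of 0.0598. The highest value was that of Ai-α4KO iWAT 1, a library with both high epithelial and high muscle markers. Leaving out any 1 iWAT library gave log2 differences of 0.49 to 1.14, none of which passed. The part of these markers was not tested.

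Areg, encoding amphiregulin, had few counts in Controls. Control iWAT libraries held 31, 0, 0, 25 and 0 counts and Ai-α4KO iWAT libraries held 93, 142, 33, 38 and 24. The Controls with reads were libraries 1 and 4, and the highest Ai-α4KO libraries were 1 and 2. These are the 4 iWAT libraries with high epithelial markers. Control iWAT 1 and 4 also had 126 and 157 CPM of the 7 T cell and ILC markers, against 15.1 to 22.9 CPM in the other Controls and 42.9 to 91.8 CPM in Ai-α4KO iWAT. Over all 10 libraries the log2 difference of 2.47 (SE 1.06) did not pass the threshold (edgeR adjusted p = 0.0678). Without Control iWAT 1 and 4 it was 8.92 (edgeR adjusted p = 0.00168), and without all 4 libraries, an alternative chosen after seeing the data, 7.74 (edgeR adjusted p = 6.38e-04). Both fits left out the only Controls with reads and so set Ai-α4KO libraries against Controls at 0 counts. The values are no measure of size, and the calls are no further support for a rise. In BAT, Control libraries held 1, 0, 0, 0 and 0 counts and Ai-α4KO libraries held 33, 17, 14, 5 and 11. The groups did not overlap and the pooled ratio was 62.5 (exact 95% counting interval 10.9 to 2500), but the counts were too low for the main test. Of the 7 epithelial markers, Krt14 and Krt17 were at 0 in all Control BAT libraries, and the list summed to 0.282 to 0.637 CPM in Control BAT and 2.93 to 5.76 CPM in Ai-α4KO BAT. Most of the latter was Cdh1, at 2.22 to 5.29 CPM. The T cell and ILC markers summed to 4.80 to 8.75 CPM in Control BAT and 26.8 to 41.3 CPM in Ai-α4KO BAT, where 4 of the 7 rose, and in iWAT 1 of the 7 rose. Other immune markers were summed as well. Among single iWAT libraries they did not all follow Areg. Ai-α4KO iWAT 2, the highest in Areg, had the lowest mast cell sum of its group. The 6 mast cell markers summed to 27.2 to 56.7 CPM in Control and 74.3 to 126 CPM in Ai-α4KO BAT, where 5 rose and Kit fell. In iWAT they summed to 46.04 to 129 and 50.4 to 154 CPM, where none rose and Kit fell. The 6 neutrophil markers summed to 12.2 to 35.9 CPM in Control and 201 to 363 CPM in Ai-α4KO BAT, where all 6 rose, and to 19.6 to 94.3 and 146 to 494 CPM in iWAT, where 4 rose. The part of these cell types in the Areg values was not tested beyond leaving the 4 libraries out.

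Ereg, encoding epiregulin, gave the fewest reads of the members in Ai-α4KO fat and was not tested in either tissue. In iWAT it held 4, 0, 0, 0 and 2 counts in Controls and 22, 10, 12, 1 and 1 in Ai-α4KO libraries, and the groups overlapped. In BAT it held 1, 1, 0, 0 and 1 counts in Controls and 7, 10, 2, 7 and 7 in Ai-α4KO libraries. The latter groups did not overlap, with a pooled ratio of 8.60 (exact 95% counting interval 2.70 to 43.8). When low genes were kept, edgeR called Areg (adjusted p = 1.75e-04) and Ereg (adjusted p = 0.00509) higher in BAT. Tgfa, encoding transforming growth factor α, ranged from 1.07 to 3.87 CPM in Control and 1.70 to 2.13 CPM in Ai-α4KO iWAT, and from 1.04 to 1.41 and 1.02 to 2.33 CPM in BAT. Its groups overlapped in both tissues, and its log2 differences of 0.07 and 0.37 did not pass the test (edgeR adjusted p = 0.880 and 0.267).

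**Figure D3:**
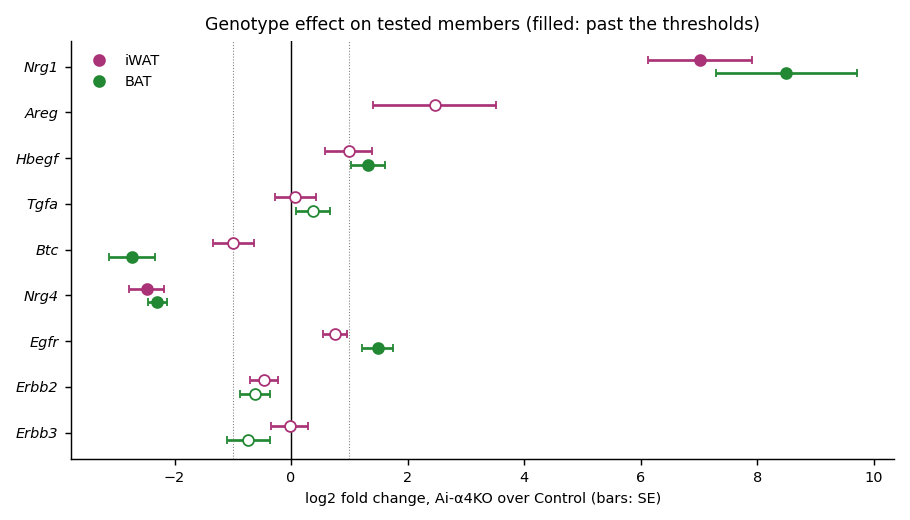
Points show the log2 fold change of Ai-α4KO over Control with its SE (bars) for the members tested in iWAT (purple) and BAT (green), filled where adjusted p is below 0.01 and the change at least 2-fold (dotted lines). Nrg1 lies far to the right and Nrg4 to the left in both tissues, and the Nrg1 point for BAT depends on the fit because its Controls are at 0.

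Egfr, the receptor that most of these ligands share, was higher in Ai-α4KO fat of both tissues. In BAT, Control libraries had 9.70, 19.5, 15.5, 26.6 and 12.4 CPM and Ai-α4KO libraries had 52.3, 67.3, 49.4, 33.5 and 38.4 CPM. The groups did not overlap, and Egfr rose by 1.49 on the log2 scale (SE 0.267, edgeR adjusted p = 4.35e-04). With the muscle covariate the log2 value was 1.38, with an edgeR adjusted p of 0.0182, a fit in which muscle RNA and genotype cannot be told apart. In iWAT, Control libraries had 51.3, 70.1, 77.8, 34.8 and 51.7 CPM and Ai-α4KO libraries had 90.8, 78.5, 126, 101 and 88.5 CPM. All Ai-α4KO libraries were above all Controls, by a narrow margin between Ai-α4KO iWAT 2 and Control iWAT 3. The log2 difference of 0.76 (SE 0.205, edgeR adjusted p = 0.00896) stayed below 2-fold. Markers of stromal progenitors, the fibroblast-like cells of fat, summed to 1287 to 2589 CPM in Control and 893 to 2436 CPM in Ai-α4KO iWAT. In BAT they summed to 333 to 677 and 779 to 1035 CPM, without overlap, and none of the 6 markers was at 0. Of the 6, 2 rose and 4 did not pass in BAT, where 18.2% of all genes rose. In iWAT none of the 6 passed. The part of these cells in the Egfr values was not tested.

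**Figure D4:**
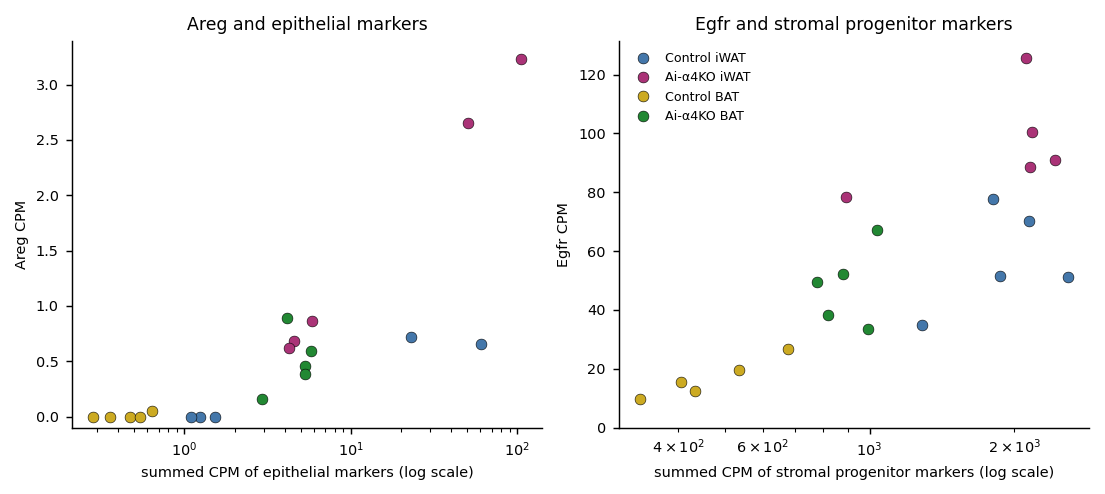
Each point is a library. The left panel plots Areg (CPM) against the summed CPM of 7 epithelial markers (log axis), and the right panel Egfr (CPM) against the summed CPM of 6 stromal progenitor markers (log axis). The highest Areg values, 2.65 and 3.23 CPM, are in the Ai-α4KO iWAT libraries with 50.3 and 105 CPM of epithelial markers, and Ai-α4KO BAT libraries lie above Control BAT on both axes in both panels.

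The receptors Erbb2 and Erbb3 did not pass the test in either tissue. Erbb2 ranged from 4.25 to 7.98 CPM in Control and 3.16 to 5.59 CPM in Ai-α4KO iWAT, and from 3.22 to 5.64 and 2.25 to 4.73 CPM in BAT. Its log2 differences were -0.46 (SE 0.236) and -0.62 (SE 0.258), with edgeR adjusted p of 0.119 and 0.0536. Erbb3 ranged from 1.24 to 2.84 CPM in Control and 1.04 to 2.43 CPM in Ai-α4KO iWAT, and from 1.37 to 5.15 and 1.10 to 3.06 CPM in BAT. Its log2 differences were -0.03 (SE 0.317) and -0.73 (SE 0.366), with edgeR adjusted p of 0.953 and 0.0995. The groups of both genes overlapped in both tissues. The median log2 fold change of the tested ligands was 0.53 in iWAT and 0.37 in BAT, and that of the receptors -0.03 and -0.62, against medians over all tested genes of 0.01 and -0.03.

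The genotype effects in BAT and iWAT were then compared by an interaction term. None of the 9 members tested passed (edgeR, adjusted p below 0.01), 2 had an unadjusted p below 0.05, and DESeq2 called 0. Across all 15230 genes tested, 4.86% passed in edgeR and 10.8% in DESeq2. The number in edgeR was 740, and it fell to 486 without Control BAT 1 and to 474 without Control BAT 3. The 2 members with an unadjusted p below 0.05 were Btc, whose effect was lower in BAT by a log2 value of -1.72 (SE 0.557, edgeR adjusted p = 0.0430), and Egfr, whose effect was higher in BAT by 0.76 (SE 0.357, edgeR adjusted p = 0.153). For Nrg4 the effects differed by 0.22 (SE 0.346), and for Nrg1 by 1.78 (SE 1.67), an estimate that rests on Controls near 0.

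Between the tissues of Control mice, Egfr was the 1 member of 7 tested that differed, being lower in BAT by a log2 value of -1.81 (SE 0.286, edgeR adjusted p = 3.31e-04) without overlap. Of all genes, 7.22% were higher and 14.7% lower in BAT, or 5.19% and 17.5% by library size alone. Btc was 1.70 higher on the log2 scale in Control BAT (SE 0.480, edgeR adjusted p = 0.0118) and did not pass, but it passed without Control iWAT 3, Control BAT 1 or Control BAT 5 (lowest edgeR adjusted p = 0.00487). Nrg4 differed between the Control tissues by 0.37 on the log2 scale (edgeR adjusted p = 0.191). In Ai-α4KO mice, none of the 9 members tested passed between BAT and iWAT in edgeR, where 3 had an unadjusted p below 0.05, nor in DESeq2, whereas 8.40% of all genes were higher and 3.09% lower in BAT in edgeR. The number of lower genes was 454, and it was 772 by library size alone, 299 and 278 without Ai-α4KO iWAT 3 and 5, and 301 without Ai-α4KO BAT 5. Egfr remained lower in BAT without overlap, at -0.96 on the log2 scale (SE 0.183, edgeR adjusted p = 0.00236), which is just short of 2-fold. It reached 2-fold without Ai-α4KO iWAT 2 or without Ai-α4KO BAT 2, and the lowest of these log2 values was -1.10. Btc, higher in BAT among Controls, differed by 0.08 on the log2 scale between the Ai-α4KO tissues (edgeR adjusted p = 0.807).

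The family has further ligands and a further receptor. Erbb4, the receptor that Nrg4 binds, fell in BAT. Control BAT libraries held 17, 25, 20, 29 and 40 counts, and Ai-α4KO BAT libraries held 10, 6, 0, 1 and 0. Every Control was above every Ai-α4KO library (log2 fold change -3.35, SE 0.635, edgeR adjusted p = 6.50e-04). Without Ai-α4KO BAT 1, the highest of its group, the log2 fold change was -4.17, and with limma on log2(FPKM + 1) it was -0.22 and below 2-fold. In iWAT it held 4, 8, 7, 8 and 5 counts in Controls and 0 in all 5 Ai-α4KO libraries, at least 2.67-fold lower against a floor of 3 counts per library, and was too low for the main test. When low genes were kept, and in one fit of all 20 libraries, edgeR called Erbb4 lower in iWAT (adjusted p = 0.00106 and 3.70e-04). In Control mice Erbb4 was higher in BAT than in iWAT, by 2.41 on the log2 scale (edgeR adjusted p = 1.97e-04). Egf rose in BAT, from 1.05, 5.48, 5.17, 3.42 and 5.02 CPM in Controls to 7.91, 8.56, 15.2, 35.2 and 15.6 CPM (log2 fold change 2.0, SE 0.475, edgeR adjusted p = 0.00303). The highest library was again Ai-α4KO BAT 4. With the muscle covariate the Egf difference was 0.06 on the log2 scale (edgeR adjusted p = 0.894). Muscle RNA and genotype cannot be told apart in that fit, as the covariate did not overlap between genotypes. Egf in iWAT differed by -0.75 on the log2 scale (edgeR adjusted p = 0.273), and its highest libraries there, Control iWAT 4 at 5.99 CPM and Ai-α4KO iWAT 1 at 4.82 CPM, were those with high muscle markers. Without Control iWAT 4 the value was -0.36 (edgeR adjusted p = 0.607), and without Ai-α4KO iWAT 1 it was -1.49 (edgeR adjusted p = 0.0124). Nrg2 differed in iWAT by -0.04 and was too low in BAT, Epgn held 1 to 19 counts per library and Nrg3 0 to 2, and neither of these was tested.

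Genes that act before and after the receptors were counted in 4 lists, to be read against the 11.3% of all genes that rose and 10.7% that fell in iWAT and the 18.2% and 13.3% in BAT. The lists were chosen with earlier results of these data known, so their counts describe the lists and are no independent test. Of 10 genes of ligand processing, Adam17, the protease that releases most EGFR ligands, rose from 56.2 ± 4.89 to 138 ± 18.9 CPM in iWAT (log2 fold change 1.29, SE 0.112, edgeR adjusted p = 6.80e-06) and by 1.09 on the log2 scale in BAT. Adam19, a related protease, also rose in BAT, by 1.53 on the log2 scale. The other 9 and 8 genes of this list did not pass. With scaling by library size alone, Adam9 and Adam10, named after their values were seen, also rose, so that 3 genes rose in iWAT and 4 in BAT, and 3 rose in iWAT without Control iWAT 2 or without Ai-α4KO iWAT 1. With TMM scaling the list's median was 0.38 in iWAT and 0.57 in BAT. Of 16 receptor brakes, 4 rose and 2 fell in iWAT, and 3 rose and 1 fell in BAT, with medians of 0.22 and -0.23. Ptprj, a receptor phosphatase, rose by 1.54 and 2.77 on the log2 scale, and Spred1, an inhibitor of RAS signaling, by 1.42 and 1.32. Ptpn1, encoding the phosphatase PTP1B, also rose in both tissues, by 1.28 on the log2 scale in BAT. Lrig1, a membrane protein that promotes loss of ERBB receptors, fell in both tissues, with a log2 fold change of -1.59 in iWAT, but was not called in BAT by library size alone or in either limma fit. The other brake that fell in iWAT, named after its values were seen, was Lrig3, whose call was lost with the replicate block, by library size alone, with other filters, in both limma fits, without the 4 libraries with high epithelial markers, and without Control iWAT 1, 2 or 3 or Ai-α4KO iWAT 1, 2, 3 or 5.

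Of 18 adaptors and kinases of the ERK cascade, none rose and 2 fell in iWAT, and 1 rose and 1 fell in BAT, with medians of 0.02 and -0.20. The genes that fell in iWAT were Plcg1, encoding phospholipase C gamma (-1.32), and Pik3r1, encoding a regulatory subunit of PI3K (-1.03). The Pik3r1 call was lost without Control iWAT 4 or 5, without Ai-α4KO iWAT 1 or 3, without the 4 libraries with high epithelial markers, with the replicate block, by library size alone and in both limma fits, whereas Plcg1 fell in iWAT under each of the alternatives run. In BAT, Plcg1 fell (-1.72) and Grb2, the adaptor that links receptors to RAS, rose (1.21, from 50.5 ± 5.65 to 120 ± 6.42 CPM). Of 11 genes known to respond to ERK activity, 6 rose in iWAT and 8 in BAT and none fell, with medians of 1.28 and 2.03. Phlda1, Myc, Etv5, Ier3, Fosl1 and Dusp5 rose in both tissues, and Etv4 and Fos also rose in BAT. Fosl1, a subunit of the AP-1 factor, went from 0.154 ± 0.247 to 10.2 ± 2.79 CPM in iWAT and from 0.122 ± 0.117 to 9.80 ± 3.64 CPM in BAT (log2 fold changes 5.87 and 6.32, edgeR adjusted p = 8.02e-05 and 4.34e-07). Ier3, an early response gene, rose by 3.53 and 3.31 on the log2 scale. These genes respond to many signals other than ERBB receptors, and macrophage markers rose in the same libraries. With the muscle covariate, 3 of the 11 rose in BAT, and over all 14344 genes the number that rose went from 2614 to 1675 (11.7%). Muscle RNA and genotype cannot be told apart in that fit. The part of each cell type in these counts was not tested.

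**Figure D5:**
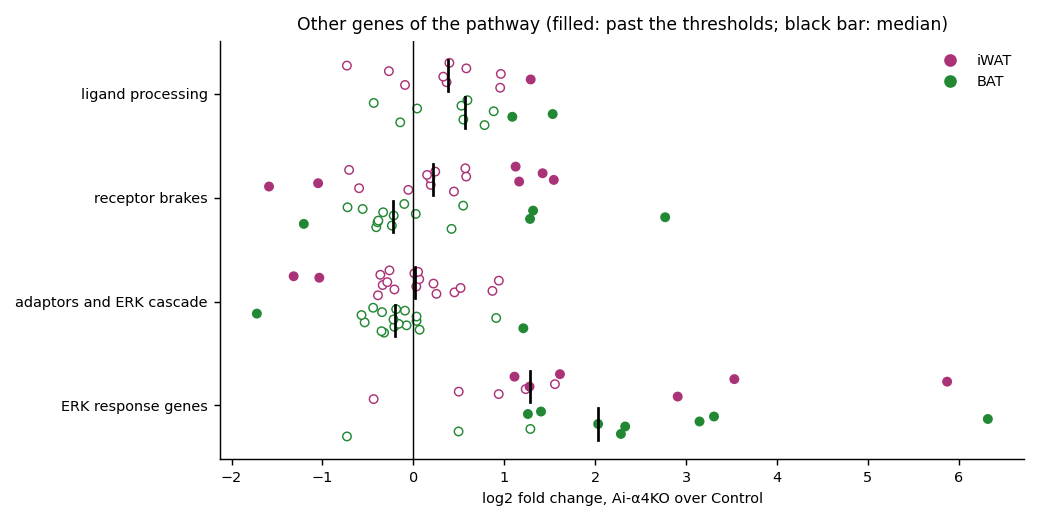
Each point is a gene of a pathway list at its log2 fold change of Ai-α4KO over Control in iWAT (purple) or BAT (green), filled where it passed the thresholds, and the black bars are list medians. The ERK response genes have medians of 1.28 and 2.03, while the adaptors and ERK cascade have medians of 0.02 and -0.20.

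As a description, the genes whose log2 CPM was most like that of each member over the 20 libraries were listed by Pearson's r, which includes the differences between the 4 groups. For Nrg1 they were Gla, encoding a lysosomal galactosidase (r = 0.979), and Adam17 (r = 0.979). For Nrg4 they were Rad9b (r = 0.979) and Dhdh (r = 0.978), and for Egfr they were Bco2 (r = 0.979) and Xpnpep2 (r = 0.976). Areg was most like Ccl5, a chemokine (r = 0.965), and Serpinb6b (r = 0.965). Hbegf was most like Pdlim7 (r = 0.906) and Ttc9 (r = 0.874), and Btc like 2810013P06Rik (r = 0.934) and 1700049G17Rik (r = 0.934). The highest values were lower for Tgfa (Ncoa5, r = 0.872, and Camp, r = 0.809), Erbb2 (Psmd9, r = 0.843, and Gigyf1, r = 0.834) and Erbb3 (Srp54b (2), r = 0.832, and Atg13, r = 0.786). Ereg had too few counts to be compared.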

How the data were processed

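RNA of iWAT and BAT was sequenced as stranded poly(A) libraries with paired reads, 5 libraries per group. The submitters' processing notes name bcl2fastq 2, STAR 2.5.3a and mm10; the counting tool and annotation release are not given in the sources used here. The deposited table holds expected counts per gene, made by the authors without normalization (76.7% of nonzero values were whole), and FPKM values, normalized by the authors for transcript length and depth. Expected counts were rounded to whole numbers. Columns were matched to samples by name, and no 2 libraries were identical. Genes were filtered by filterByExpr within each comparison, scaled by TMM and tested by edgeR 4.0.16 (R 4.3.3) with Benjamini-Hochberg adjustment over all genes tested; the interaction used all 20 libraries. CPM values used TMM factors of all 20 libraries, and log2 CPM a prior count of 0.5. Single members were also tested by exact permutation of log2 CPM. DESeq2 1.42.0 and limma 3.58.1 on log2(FPKM + 1) and log2(FPKM + 0.1) were alternatives. So were other scalings and filters, a replicate block, a muscle marker covariate and leaving out libraries. The covariate was the mean log2 CPM of the muscle list, which did not overlap between genotypes in BAT. The code was tested on simulated counts. Members and gene lists were chosen with earlier results of these data known. Named are all members, Igbp1, every gene of the further ligands and receptor, up to 3 genes per list and tissue with the largest change past the thresholds, and the 2 genes most like each member; the remaining genes that passed in the ERK response list were named after their values were seen. Depths of 24023309 to 50384427 counts leave genes with under about 10 counts per library imprecise; intervals and floors cover counting error only. Promoters were searched for exact motif letters on both strands. Proteins were not analysed here.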

Additional observations from a re-analysis of the deposited data

Results flagged for a closer look

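In Control iWAT 1, Tgfa was at 3.87 CPM, far above the other Control iWAT libraries, the nearest of which was at 1.55 CPM. In the same library Erbb3 was at 2.84 CPM, with the nearest other library at 1.41 CPM. Each is the highest of 5 libraries with a gap to the next of 0.711 and 0.851 of the group's range in log2 CPM. Of 36 groups of a member's libraries examined, these 2 stood out, and chance gives about 1 in 20. Control iWAT 1 is also the library with 431 CPM of B cell markers and 60.4 CPM of epithelial markers. Whether these move the 2 values was not tested.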

How the results depend on the processing

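Leaving out any 1 library kept each call of a member in iWAT and in BAT between genotypes. Of the members, 2 rose in iWAT without Control iWAT 1 and 4 or without the 4 libraries with high epithelial markers (Areg added; 11.9% and 13.0% of all genes rose there), and 2 fell under DESeq2 (Btc added; 12.3% of all genes). In BAT, 5 rose with no filter (2799 of all 18643 genes), 1 under limma on log2(FPKM + 1) (Egfr; 14.8%) and 1 with the muscle covariate (Nrg1; 11.7%). At an adjusted p below 0.05, the interaction gave 1 (Btc), Control BAT over iWAT 1 (Btc) and Ai-α4KO BAT under iWAT 1 (Areg). Control BAT over iWAT gave 1 under DESeq2 and 0 to 1 when leaving out a library, and Ai-α4KO BAT under iWAT 1 (Egfr) by library size alone, upper quartile and both limma fits, and 0 to 1 when leaving out a library. With limma on log2(FPKM + 1), Nrg1 and Hbegf in BAT moved to 0.72 and 0.68, since adding 1 shrinks low values. The causes of the other changes were not tested. The replicate block left the counts of members at 1 higher and 1 lower in iWAT and 3 and 2 in BAT and changed no call. Between the tissues of a genotype, deviations of same-numbered libraries correlated from -0.253 to 0.208. This does not settle whether numbers pair the libraries.

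No value that passed a test reversed. Of the values that did not pass, Tgfa in iWAT was -0.031 with upper-quartile factors, and Erbb3 in iWAT was 0.085 by library size, 0.030 and 0.096 in the limma fits and 0.16 without Control iWAT 1 and 4. Between Control tissues Hbegf was -0.032 by library size and -0.0042 and -0.0045 in the limma fits, and between Ai-α4KO tissues Btc was -0.10 by library size, -0.0040 with upper-quartile factors and -0.063 and -0.096 in the limma fits. Leaving out 1 library gave log2 ranges of -0.070 to 0.50 (Tgfa, iWAT), -0.22 to 0.21 (Erbb3, iWAT), -0.54 to 2.52, -0.048 to 0.54 and -0.32 to 0.13 (Nrg1, Tgfa and Erbb2, interaction), -1.15 to 0.0039 (Nrg1, Ai-α4KO tissues) and -0.045 to 0.20 (Btc, Ai-α4KO tissues). Library size alone moved the median of all genes to 0.13 in iWAT and 0.23 in BAT. Of all genes, 1559 fell in iWAT and 1910 in BAT, against 779 and 807 with limma on log2(FPKM + 1), and library size alone gave 1265 for BAT. By list, the counts of receptor brakes that fell were 1 to 2 in iWAT and 0 to 1 in BAT, and those of adaptors that rose 0 to 2 and 1 to 2, and those of adaptors that fell 1 to 2 and 1. Ereg, Areg in BAT and Erbb4 in iWAT are limited by counts.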
